A study of Mus musculus with 14 samples.

Results

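MHC class I molecules show peptides made inside a cell to CD8 T cells, and 10 genes of this pathway were followed in CD8 T cells themselves: Nlrc5, B2m, H2-K1, H2-D1, Tap1, Tap2, Tapbp, Psmb8, Psmb9 and Psmb10. They were taken by gene symbol, and all 10 were present in both deposited tables, which share 12539 genes. The cells came from C57BL/6 spleens, were sorted as naive CD8 T cells (CD62Lhi CD44lo) and were activated in culture for 6 h by plate-bound anti-CD3 together with soluble anti-CD28, each at 1 µg/mL. In the presence of 20 ng/mL recombinant IFN-beta there were 4 libraries labelled Morrbid-/- and 4 labelled wild type. In its absence there were 3 labelled Morrbid-/- and 3 labelled wild type. Morrbid is a long noncoding RNA, and the labels give neither the deleted part of its gene nor the age of the mice. The libraries labelled Morrbid-/- are called KO-labelled below and those labelled wild type are called WT.

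Recovered reads per library ranged from 5788070 to 7355337 with IFN-beta and from 1747634 to 2963149 without it. The Morrbid transcript had 7, 4 and 7 reads in the KO-labelled libraries without IFN-beta, against 2, 4 and 2 in the WT libraries, so the loss that the labels give was not seen in these few reads. Every direction below follows the labels. Its level with IFN-beta was not analysed here. The summed level of 7 markers of CD8 T cells was 7456 to 8487 normalized counts in the KO-labelled libraries with IFN-beta, against 7973 to 8526 in the WT libraries. Without IFN-beta the same sum was 3245 to 3746 in the KO-labelled and 3484 to 4255 in the WT libraries. Markers of CD4 T cells, B cells and NK cells each summed to 28.4 or less in every library, and Cd4, Ms4a1, Pax5 and Blnk were not listed in either table. In such bulk RNA, fewer cells of a type and less RNA per cell cannot be told apart. Nothing says that replicates came from separate animals, so the p-values speak only of the spread between these libraries, which may be technical.

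In this pathway the proteasome cuts cytosolic proteins into peptides. During an interferon response the catalytic subunits PSMB8, PSMB9 and PSMB10 take the place of PSMB5, PSMB6 and PSMB7, which gives the immunoproteasome. TAP1 and TAP2 form the transporter that carries peptides into the endoplasmic reticulum, and tapasin, the product of Tapbp, holds the transporter next to empty class I molecules. A class I molecule is a heavy chain, such as those of H2-K1 and H2-D1, bound to beta-2-microglobulin from B2m. NLRC5 is a transactivator that is recruited to class I promoters through factors bound there, and it is itself induced by interferon.

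The promoters of heavy chain genes and of B2m are shown because these genes are compared below. What the marked stretches do was not tested. The sequences are from RefSeq (GRCm38.p6), 5′ to 3′ on the strand of the gene. They lie at chr17:34000356-34000461, minus strand (H2-K1), chr17:35262920-35263025, plus strand (H2-D1), chr17:35424674-35424778, plus strand (H2-Q6), chr17:35439019-35439122, plus strand (H2-Q7) and chr2:122147545-122147641, plus strand (B2m). Capitals mark matches, on either strand, to 4 kinds of motif.
H2-K1: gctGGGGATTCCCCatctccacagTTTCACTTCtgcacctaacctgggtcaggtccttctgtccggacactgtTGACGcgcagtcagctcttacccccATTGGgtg
H2-D1: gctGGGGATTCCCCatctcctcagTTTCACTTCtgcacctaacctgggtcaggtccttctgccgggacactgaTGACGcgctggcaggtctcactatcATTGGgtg
H2-Q6: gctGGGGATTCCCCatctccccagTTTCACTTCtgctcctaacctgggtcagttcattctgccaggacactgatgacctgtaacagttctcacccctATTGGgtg
H2-Q7: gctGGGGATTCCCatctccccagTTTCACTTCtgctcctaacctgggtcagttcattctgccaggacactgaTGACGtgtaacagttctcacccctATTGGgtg
B2m: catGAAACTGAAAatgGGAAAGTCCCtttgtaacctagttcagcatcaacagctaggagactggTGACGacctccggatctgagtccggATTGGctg

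The first motif, of the kind bound by interferon regulatory factors, was GAA or GAAA, then any 2 bases, then GAAA. The next, of the NF-kappaB kind, was GGGA, any base, T, any 2 bases and CC, and the others were TGACG, the core of the X2 box, and CCAAT, the core of the Y box. They were chosen after these promoters had been read, and a match is a description of letters only. Of 32851 promoters, taken as the 250 bases before each start, 8.82% held the interferon regulatory factor motif, 3.44% held the NF-kappaB motif, 17.8% held TGACG and 33.8% held CCAAT. No 2 kinds overlap in the sequences shown, and overlapping matches of one kind on both strands are merged in the capitals. Among the 10 genes 8 had a promoter entry, and H2-K1, H2-D1 and B2m held all 4 kinds. In all, 12 promoters of 11 genes held all 4 kinds, and H2-M3, H2-Q4, H2-Q7 and H2-T22 were among them. H2-Q6 held 3 of the 4 kinds, with no TGACG in the window. Psmb9 and Tap1, which lie side by side on opposite strands, held TGACG and CCAAT, and Tapbp held CCAAT only.

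With IFN-beta, Nlrc5 and Tap1 were lower and H2-K1 was higher in the KO-labelled than in the WT libraries. Without IFN-beta, Nlrc5 and Tapbp were the members that passed, and both were higher in the KO-labelled than in the WT libraries. For Nlrc5, Tapbp and Tap1 the genotype difference itself was lower with IFN-beta than without it. The settings are split between the tables, so IFN-beta was not tested apart from other differences between the tables. The sizes were modest: the widest genotype difference among the 10 genes was that of Nlrc5 without IFN-beta, 1.57-fold. Calls are Benjamini-Hochberg adjusted p-values under 0.05 from limma, over all genes with a mean of at least 10, and log2 differences are KO-labelled minus WT on the log2(normalized count + 1) scale. All 10 genes passed the filter in both tables.

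With IFN-beta, 1 of the 10 genes was higher and 2 were lower in the KO-labelled libraries. Over all 9964 genes tested, 10.1% were called, 5.25% as higher and 4.84% as lower. After rescaling to equal totals, 68.0% of the called genes were higher, against 52.0% with the deposited size factors. The median difference of the 10 genes was -0.06, against 0.0015 over all genes tested. H2-K1 and H2-D1 were higher without overlap of the groups and Nlrc5 and Tap1 were lower without overlap. Of all genes tested 15.2% did not overlap, 7.58% as higher and 7.6% as lower. Of the 10 differences 3 were positive, as were 50.3% of those over all genes.

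Without IFN-beta, 2 of the 10 genes were called, where 0.635% of all 9290 genes tested were called, 0.538% as higher and 0.0969% as lower. All 10 differences were positive, as were 48.6% of those over all genes. Their median was 0.34, against -0.0061 over all genes. In the same libraries all 7 CD8 T cell markers had negative differences, with a median of -0.16. Of these Thy1 was lower without overlap (-0.30; limma adjusted p = 0.582), 0 of the 7 passed by limma, edgeR or DESeq2, and their part in the result was not tested. An unadjusted p under 0.05 was reached by 7 of the 10 genes, all of them higher, against 6.1% of all genes. The groups did not overlap for Nlrc5, Tap1, Tap2, Tapbp, Psmb9 and Psmb10, each higher, and of all genes 10.9% did not overlap, 5.53% as higher and 5.39% as lower. Of all genes 24.4% with IFN-beta and 12% for the difference between settings had an unadjusted p under 0.05. The quasi-likelihood test of edgeR and DESeq2, both on recovered reads, called Nlrc5 and Tapbp as well.

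**Figure D1:**
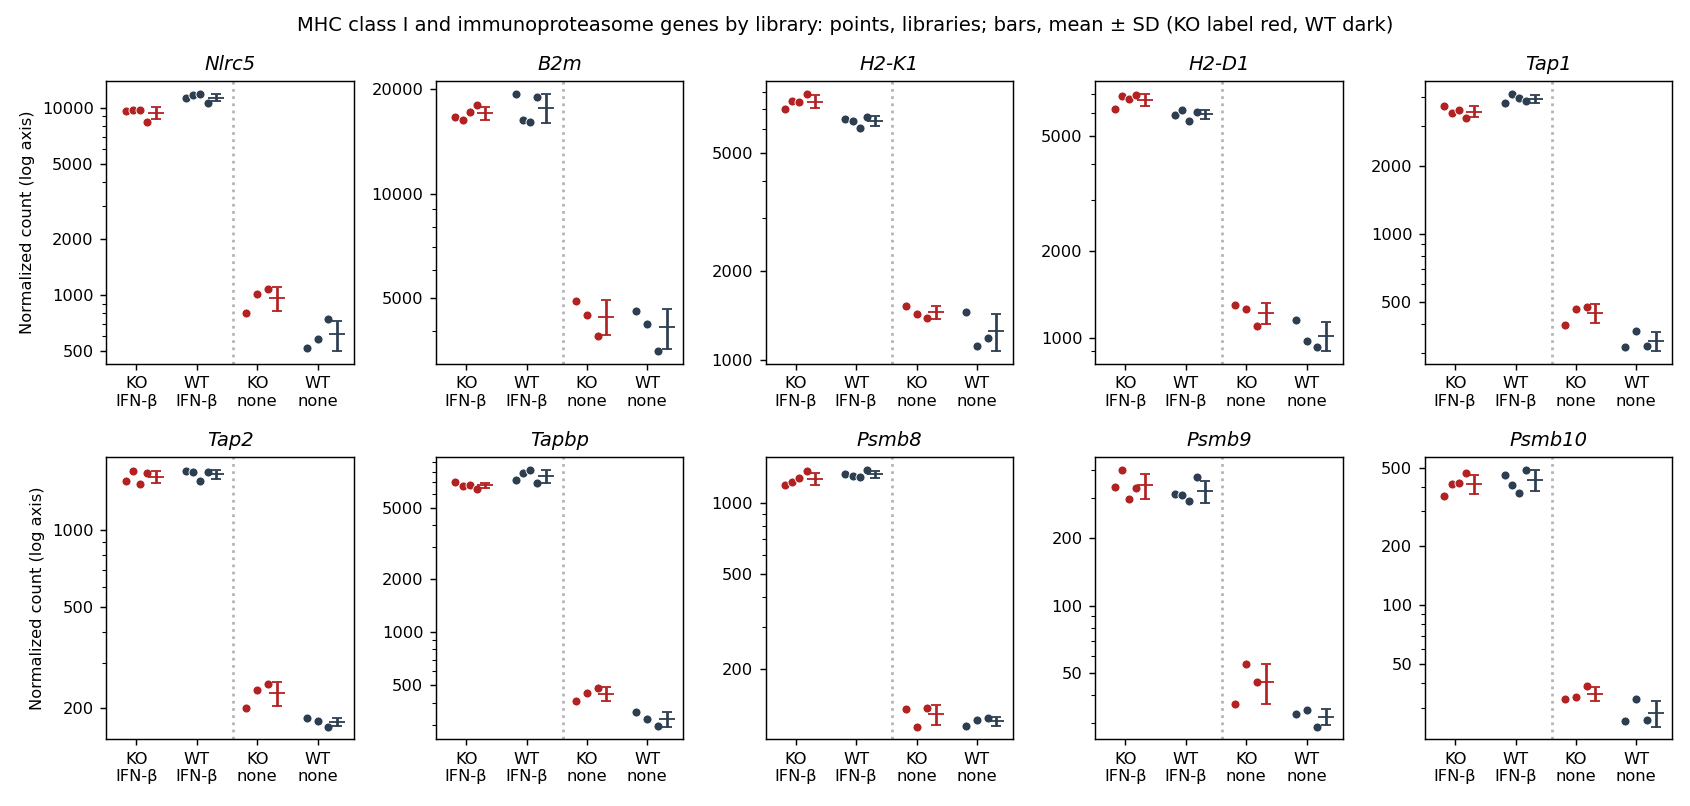
Deposited normalized counts (log axis, with its own range for each gene) of the 10 genes in every library, with the mean ± SD beside the points of each group; KO-labelled libraries in red stand left of WT libraries in dark, with IFN-beta on the left (4 and 4 libraries) and without it on the right (3 and 3). The 2 tables were normalized separately, so only points on one side of a dotted line share a scale; Nlrc5 lies lower in the KO-labelled libraries with IFN-beta and higher in them without it.

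Nlrc5, the transactivator, differed between the genotypes in opposite directions in the 2 settings. With IFN-beta it held 9632, 9763, 9739 and 8369 normalized counts in the KO-labelled libraries, against 11343, 11648, 11804 and 10621 in the WT libraries. All 4 KO-labelled libraries lay below all 4 WT libraries, with replicate 4 the lowest of either genotype. The means were 9376 ± 674 in the KO-labelled and 11354 ± 525 in the WT libraries (SD, n = 4 each), and the log2 difference was -0.28 (SE 0.06, adjusted p = 0.0025 by limma). Without IFN-beta, Nlrc5 held 801, 1014 and 1074 normalized counts in the KO-labelled libraries, against 522, 585 and 743 in the WT libraries. All 3 KO-labelled libraries lay above all 3 WT libraries, with a mean of 963 ± 144, against 617 ± 114 (SD, n = 3 each). That log2 difference was 0.65 (SE 0.12, adjusted p = 0.00427 by limma). The difference between the 2 genotype differences, with minus without IFN-beta, was -0.92 (SE 0.14, adjusted p = 0.000239 by limma).

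The Nlrc5 genotype difference without IFN-beta did not pass when WT replicate 2 was left out (limma adjusted p = 0.0705) or when KO-labelled replicate 2 was left out (0.132). By limma without its mean-variance trend, Nlrc5 passed neither without IFN-beta (adjusted p = 0.528) nor with it (0.0961). The libraries without IFN-beta also differed in their share of mitochondrial 16S rRNA, which was 11.6% to 12.8% in 3 libraries (2 KO-labelled, 1 WT) and 16.01% to 18.9% in the other 3 (1 KO-labelled, 2 WT). The Nlrc5 difference was 0.49 within the libraries of low share and 0.53 within those of high share. For Tapbp these were 0.67 and 0.27, for Tap1 0.56 and 0.20, for Tap2 0.52 and 0.16, and for Psmb9 0.77 and 0.11. All of them were positive, with fewer than 3 libraries per genotype in each set and no test. With the 16S share as a covariate, 4 of the 10 genes passed without IFN-beta, with H2-D1 (limma adjusted p = 0.0342) and Tap1 (0.0189) added, and 103 genes in all, against 59 without the covariate.

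H2-K1 encodes one of the classical heavy chains of this strain. With IFN-beta, H2-K1 held 7003, 7486, 7393 and 7903 normalized counts in the KO-labelled libraries, against 6496, 6389.7, 6079 and 6626 in the WT libraries. Every KO-labelled library lay above every WT library, and the log2 difference was 0.22 (SE 0.05, adjusted p = 0.00899 by limma). That call was lost by limma without its mean-variance trend (adjusted p = 0.124). Without IFN-beta, H2-K1 held 1521, 1433 and 1379 normalized counts in the KO-labelled libraries, against 1453, 1116 and 1181 in the WT libraries. The groups overlapped there, since WT replicate 1 lay above 2 of the KO-labelled libraries. The difference of 0.22 (SE 0.10, adjusted p = 0.813 by limma) did not pass, with a 95% interval of 0.00 to 0.43. Between the settings the H2-K1 difference moved by 0.00, with an interval of -0.23 to 0.23 (limma adjusted p = 0.997).

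H2-D1, the other classical heavy chain gene, held 6188, 6853, 6687 and 6904 normalized counts in the KO-labelled libraries, against 5914, 6146, 5646 and 6051 in the WT libraries with IFN-beta. The groups did not overlap, but the log2 difference of 0.16 (SE 0.05, adjusted p = 0.0511 by limma) missed the threshold. It passed under 7 of its 21 alternatives, among them DESeq2 on recovered reads (adjusted p = 0.0348), the replicate block (limma adjusted p = 0.0143), quantile normalization (0.0123) and rescaling to equal totals (0.0138). Without IFN-beta, H2-D1 held 1296, 1259.8 and 1100.1 normalized counts in the KO-labelled libraries, against 1152, 975 and 931 in the WT libraries. WT replicate 1 lay within the KO-labelled range, and the difference of 0.26 (SE 0.10, adjusted p = 0.626 by limma) did not pass, except with the replicate block (0.0369) and the 16S covariate (0.0342). B2m, the light chain shared by all class I molecules, showed no detectable genotype difference in either setting. With IFN-beta B2m held 16628, 16358, 17263 and 18027 normalized counts in the KO-labelled libraries, against 19395, 16356, 16114 and 18957 in the WT libraries, a log2 difference of -0.05 (SE 0.06, adjusted p = 0.687 by limma) with an interval of -0.18 to 0.08. Without IFN-beta B2m held 4888, 4459 and 3870.2 normalized counts in the KO-labelled libraries, against 4589, 4206 and 3509 in the WT libraries, a difference of 0.11 (SE 0.12, adjusted p = 0.955 by limma) with an interval of -0.14 to 0.35.

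Tapbp, whose product tapasin bridges transporter and heavy chain, was higher in the KO-labelled than in the WT libraries without IFN-beta. It held 409.5, 453 and 487 normalized counts in the KO-labelled libraries, against 357, 324 and 294 in the WT libraries. The groups did not overlap, with means of 449.9 ± 38.9 in the KO-labelled and 325 ± 31.2 in the WT libraries (SD, n = 3 each) and a log2 difference of 0.47 (SE 0.11, adjusted p = 0.0313 by limma). This call was lost when WT replicate 2 (limma adjusted p = 0.139), WT replicate 3 (0.153), KO-labelled replicate 2 (0.307) or KO-labelled replicate 3 (0.278) was left out. It was also lost by limma without its mean-variance trend (adjusted p = 0.528). With IFN-beta, Tapbp held 6979.7, 6636, 6724 and 6388 normalized counts in the KO-labelled libraries, against 7152, 7857, 8208 and 6903 in the WT libraries. The ranges overlapped, because KO-labelled replicate 1 lay above WT replicate 4, and the difference of -0.17 (SE 0.06, adjusted p = 0.0641 by limma) did not pass. It passed with robust empirical Bayes (limma adjusted p = 0.0397), the replicate block (0.0143) or the 16S covariate (0.0162) and without WT replicate 4 (0.022). The difference between settings did pass, at -0.64 (SE 0.11, adjusted p = 0.00124 by limma). The antisense gene Gm19412 overlaps 24.9% of the exon bases of Tapbp, and its own level was 24.4 normalized counts or less in every library. Zbtb22, on the same strand as Tapbp, overlaps 4.11% of them. Zbtb22 held 181.5 to 230.0 normalized counts in the KO-labelled and 229.4 to 270.9 in the WT libraries with IFN-beta. Without IFN-beta it held 89.2 to 105.4 in the KO-labelled and 86.4 to 112.6 in the WT libraries. The part of reads from shared bases in the Tapbp values was not tested.

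Tap1 encodes one chain of the peptide transporter. In the setting with IFN-beta it was lower in the KO-labelled than in the WT libraries. With IFN-beta, Tap1 held 3674, 3423, 3515 and 3237 normalized counts in the KO-labelled libraries, against 3788, 4142, 3961 and 3836 in the WT libraries. The groups did not overlap, and the log2 difference was -0.18 (SE 0.06, adjusted p = 0.0341 by limma). The call was lost with libraries rescaled to equal totals (limma adjusted p = 0.112) and by limma without its mean-variance trend (0.183). It was also lost without WT replicate 2 (limma adjusted p = 0.123), WT replicate 3 (0.0607), KO-labelled replicate 2 (0.094), KO-labelled replicate 3 (0.065) or KO-labelled replicate 4 (0.0973). Without IFN-beta, Tap1 held 398, 468 and 477 normalized counts in the KO-labelled libraries, against 318, 376 and 321 in the WT libraries. All KO-labelled libraries lay above all WT libraries there, with a difference of 0.40 (SE 0.11, adjusted p = 0.131 by limma) that did not pass. It passed without KO-labelled replicate 1 (limma adjusted p = 0.0277), with the replicate block (0.00201) and with the 16S covariate (0.0189). The difference between settings was -0.59 (SE 0.11, adjusted p = 0.00266 by limma).

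Tap2, the partner chain of the transporter, held 1565, 1714, 1530.4 and 1682 normalized counts in the KO-labelled libraries, against 1720.4, 1694, 1567 and 1692 in the WT libraries with IFN-beta, where the ranges overlapped and the difference was -0.04 (SE 0.06, adjusted p = 0.741 by limma). Without IFN-beta, Tap2 held 201, 236 and 249 normalized counts in the KO-labelled libraries, against 182, 178 and 169 in the WT libraries. The groups did not overlap, but the difference of 0.37 (SE 0.12, adjusted p = 0.38 by limma) did not pass, and neither did the difference between settings, -0.41 (SE 0.11, adjusted p = 0.079 by limma). Tap1 and Psmb9 share 212 exon bases on opposite strands, and the strand setting of the counting is not given in the sources used here.

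**Figure D2:**
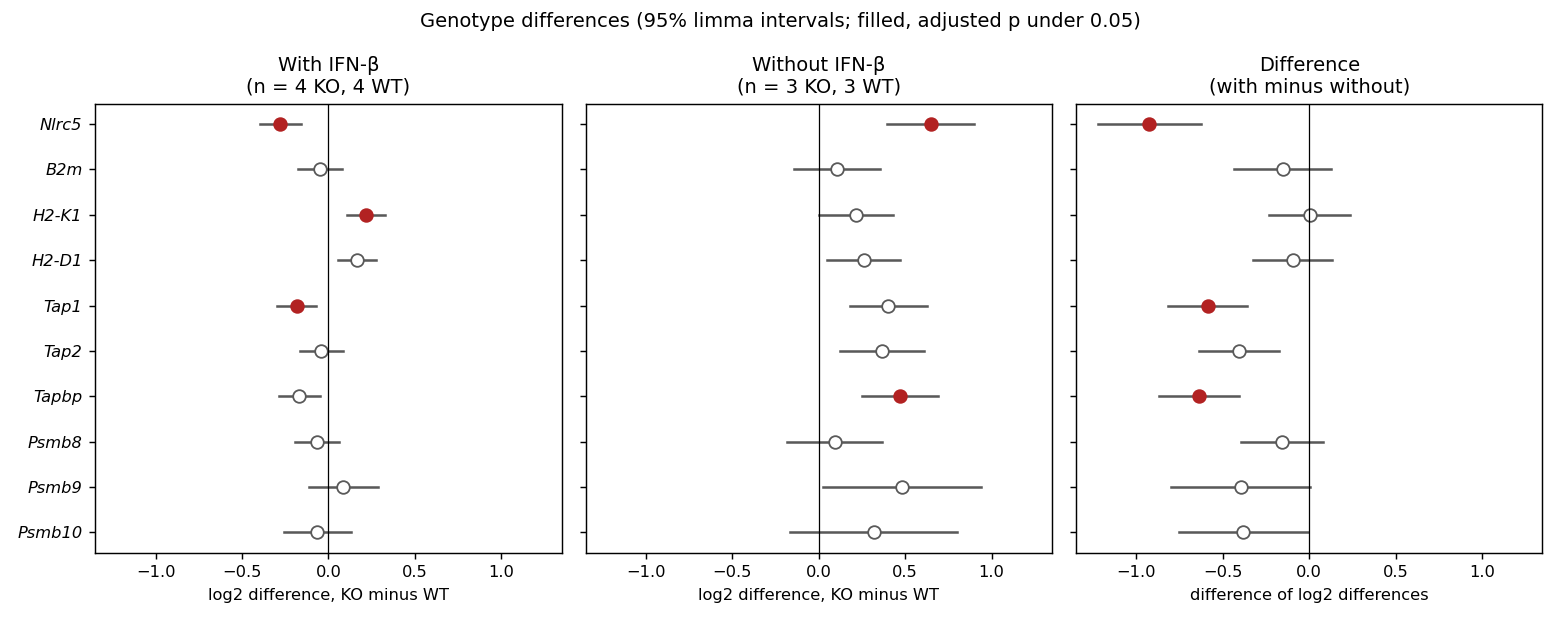
Log2 difference between KO-labelled and WT libraries for each gene (points) with its 95% interval from limma (lines), with IFN-beta (4 and 4 libraries), without it (3 and 3) and the difference of the 2 differences; filled points have an adjusted p under 0.05. In the panel without IFN-beta all 10 points lie right of 0, and in the panel of differences those of Nlrc5, Tapbp and Tap1 are filled and lie left of 0.

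The immunoproteasome subunits Psmb8, Psmb9 and Psmb10, which carry the catalytic sites, did not pass in either setting. Psmb8 held 1191, 1219, 1266 and 1358 normalized counts in the KO-labelled libraries, against 1317, 1292, 1285 and 1379 in the WT libraries with IFN-beta, a difference of -0.07 (SE 0.06, adjusted p = 0.544 by limma). Without IFN-beta, Psmb8 held 135, 114 and 136 normalized counts in the KO-labelled libraries, against 114, 122 and 124 in the WT libraries, a difference of 0.09 (SE 0.13, adjusted p = 0.963 by limma). The genotypes overlapped for Psmb8 in both settings. Psmb9 was sparser, with 338, 402, 297 and 333 normalized counts in the KO-labelled libraries, against 313, 309, 293 and 373 in the WT libraries with IFN-beta, and the groups overlapped (difference 0.09; interval -0.11 to 0.29). Without IFN-beta, Psmb9 held 36.5, 55.00 and 46.05 normalized counts in the KO-labelled libraries, against 33.1, 34.3 and 29.05 in the WT libraries. All 3 KO-labelled libraries lay above the WT libraries, but the difference of 0.48 (SE 0.22, adjusted p = 0.775 by limma) came with an interval of 0.02 to 0.94. Psmb10 held 356, 411, 415 and 469 normalized counts in the KO-labelled libraries, against 459, 409, 373 and 488 in the WT libraries with IFN-beta, with overlap and a difference of -0.06 (SE 0.09, adjusted p = 0.736 by limma). Without IFN-beta, Psmb10 held 33.5, 34.05 and 38.9 normalized counts in the KO-labelled libraries, against 25.9, 33.3 and 25.99 in the WT libraries, with no overlap and a difference of 0.32 (SE 0.23, adjusted p = 0.924 by limma).

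Whether the immunosubunits changed relative to the subunits they replace was tested as a ratio of normalized counts within each library, which does not depend on the size factor. The log2 ratio of Psmb8 to Psmb5 was 5.15 ± 0.32 in the KO-labelled and 5.56 ± 0.47 in the WT libraries with IFN-beta (SD, n = 4 each; two-sided exact permutation p = 0.229). It was 2.72 ± 0.18 in the KO-labelled and 2.43 ± 0.36 in the WT libraries without IFN-beta (SD, n = 3 each; two-sided exact permutation p = 0.3). The log2 ratio of Psmb9 to Psmb6 was 0.42 ± 0.26 in the KO-labelled and 0.34 ± 0.12 in the WT libraries with IFN-beta (SD, n = 4 each; two-sided exact permutation p = 0.686). It was -1.39 ± 0.44 in the KO-labelled and -1.88 ± 0.34 in the WT libraries without IFN-beta (SD, n = 3 each; two-sided exact permutation p = 0.3). PSMB8 replaces PSMB5 and PSMB9 replaces PSMB6 in the assembled particle. The log2 ratio of Psmb10 to Psmb7 was 2.03 ± 0.20 in the KO-labelled and 1.99 ± 0.29 in the WT libraries with IFN-beta (SD, n = 4 each; two-sided exact permutation p = 0.83). It was -0.92 ± 0.35 in the KO-labelled and -1.20 ± 0.16 in the WT libraries without IFN-beta (SD, n = 3 each; two-sided exact permutation p = 0.4). Adjusted over the 6 ratios, the exact permutation p was 0.6 or more for each of them. The smallest p this exact test can give is 0.0286 with 4 libraries per genotype and 0.1 with 3, so with adjustment over the 6 ratios no ratio could pass in either setting. Psmb5, Psmb6 and Psmb7 themselves gave 0 calls by limma in either setting, 0 at an unadjusted p under 0.05, and 0 by edgeR or DESeq2.

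Among the other class I heavy chains, which include nonclassical molecules that present to other receptors, the test with IFN-beta covered 11 of 22 listed genes, of which limma called 2 as higher, 0 as lower and left 9 uncalled. By edgeR and by DESeq2 the same 2 were higher and 0 were lower. Of all genes tested with IFN-beta, limma called 5.25% as higher and 4.84% as lower. H2-Q6 averaged 3949 ± 176 in the KO-labelled and 2896 ± 65.5 in the WT libraries (SD, n = 4 each), and the log2 difference was 0.45 (SE 0.05, adjusted p = 5.34e-06 by limma). H2-Q7, which encodes Qa-2, averaged 6199 ± 216 in the KO-labelled and 4799 ± 255 in the WT libraries (SD, n = 4 each), and the log2 difference was 0.37 (SE 0.05, adjusted p = 6.04e-05 by limma). Both stood beside H2-K1 as higher in the libraries in which Nlrc5 and Tap1 were lower. H2-Q4 was at 0.18 (SE 0.06, adjusted p = 0.0558 by limma), which did not pass. Of the 75-base stretches of their transcripts, 21.1% in H2-Q6 and 17.0% in H2-Q7 occur in other genes too, against 3.10% in H2-K1 and 5.56% in H2-D1, so reads of the Q genes may be shared.

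Without IFN-beta, the test covered 10 of these heavy chain genes. Limma called 1 as higher and 0 as lower and left 9 uncalled. Of all genes tested, 0.538% were called as higher and 0.0969% as lower there. An unadjusted p under 0.05 was reached by 6 of the 10, in both directions: Cd1d1, which presents lipids, was at -0.96 (SE 0.34, adjusted p = 0.507 by limma), and the others had positive differences. H2-T23, which encodes Qa-1, rose to 253 ± 43.4 in the KO-labelled libraries, against 158 ± 11.96 in the WT libraries (SD, n = 3 each), and the log2 difference was 0.67 (SE 0.13, adjusted p = 0.00499 by limma). That call was lost without KO-labelled replicate 2 (limma adjusted p = 0.187) and by limma without its mean-variance trend (0.324). H2-Q6 was at 0.43 (SE 0.12, adjusted p = 0.157 by limma) and H2-Q7 at 0.31 (SE 0.10, adjusted p = 0.324 by limma), and neither passed. For the difference between settings 9 of them were tested, 0 passed by limma or edgeR, 4 had an unadjusted p under 0.05, and DESeq2 called H2-T23 as lower.

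In the libraries with IFN-beta, 3 of 8 myeloid and dendritic cell markers were listed, and they summed to 17.4 to 35.9 normalized counts in the KO-labelled libraries, against 13.3 to 16.5 in the WT libraries. Lyz2, Csf1r, Adgre1, Flt3 and Siglech were not listed in that table. Without IFN-beta 6 of the 8 were listed, with a sum of 15.2 to 31.4 in the KO-labelled and 13.5 to 24.1 in the WT libraries. Cd68, a lysosomal protein of macrophages, was the 1 of them abundant enough to test. It averaged 23.6 ± 7.35 normalized counts in the KO-labelled and 14.6 ± 0.921 in the WT libraries with IFN-beta (SD, n = 4 each; log2 difference 0.62, limma adjusted p = 0.164), without overlap. Without IFN-beta Cd68 averaged 13.3 ± 5.70 in the KO-labelled and 7.23 ± 2.62 in the WT libraries (SD, n = 3 each; log2 difference 0.75, limma adjusted p = 0.868), with overlap. Of 10 class II presentation genes 7 were listed with IFN-beta, with a sum of 153 to 209.8 in the KO-labelled and 166 to 235 in the WT libraries. Without IFN-beta all 10 were listed, with a sum of 67.5 to 87.7 in the KO-labelled and 76.9 to 129 in the WT libraries. The part of other cell types in the differences of the 10 genes and of the other heavy chains was not tested.

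The factors that bind class I promoters and carry interferon signals to them were read from a list of 14 regulators, all tested. With IFN-beta, 3 were higher, 1 was lower and 10 were not called. Of all genes tested, limma called 5.25% as higher and 4.84% as lower there. Rela, an NF-kappaB subunit, averaged 554 ± 31.7 in the KO-labelled and 349 ± 37.1 in the WT libraries (SD, n = 4 each), and the log2 difference was 0.67 (SE 0.08, adjusted p = 1.04e-05 by limma). Nfkb1, its partner subunit, was higher by 0.41 (SE 0.06, adjusted p = 7.7e-05 by limma), and Irf2, an interferon regulatory factor, by 0.21 (SE 0.06, adjusted p = 0.0221 by limma). Irf1, an activator of class I genes, averaged 2821 ± 115 in the KO-labelled and 3227 ± 141 in the WT libraries, lower at -0.19 (SE 0.05, adjusted p = 0.0245 by limma). The Irf1 call was lost after rescaling to equal totals and by limma without the trend (adjusted p = 0.155). It was also lost without WT replicate 2, WT replicate 4, KO-labelled replicate 1 or KO-labelled replicate 3. The Irf2 call was lost by limma without the trend (adjusted p = 0.15), with the 16S covariate and without WT replicate 1 or KO-labelled replicate 2.

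Without IFN-beta, 2 of the 14 regulators were higher, where 0.538% of all genes tested were called as higher by limma. By limma, edgeR or DESeq2 0 were lower, and 3 had an unadjusted p under 0.05, against 6.1% of all genes. The third of these was Rfxank, a subunit of the RFX complex that binds class I and class II promoters, with a negative difference of -0.61 (SE 0.27, adjusted p = 0.769 by limma). Irf1 averaged 601 ± 47.8 in the KO-labelled and 395 ± 14.7 in the WT libraries (SD, n = 3 each), and the log2 difference was 0.60 (SE 0.10, adjusted p = 0.000776 by limma). This call was lost by limma without the trend (adjusted p = 0.217). Irf9, an interferon regulatory factor that acts downstream of type I interferon receptors, was higher by 0.54 (SE 0.12, adjusted p = 0.0239 by limma). Its call was lost in 5 of the 6 fits that left out 1 library and by limma without the trend (adjusted p = 0.337). Irf1 and Irf9 were higher in the same KO-labelled libraries as Nlrc5 and Tapbp. For the difference between settings, Irf1 (-0.79; limma adjusted p = 1.07e-05) and Irf9 (-0.53; 0.0047) were lower, and 0 of the 14 were higher by limma or edgeR, against 1 by DESeq2.

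**Figure D3:**
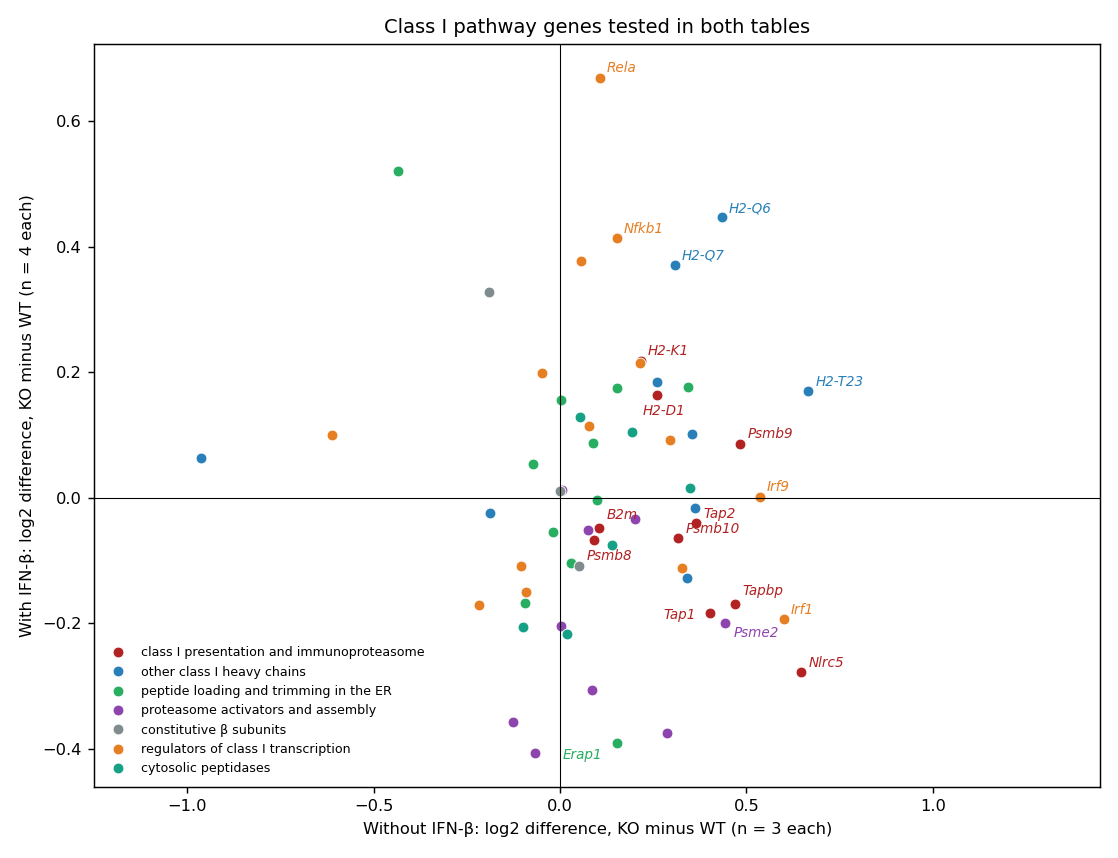
Log2 difference between KO-labelled and WT libraries without IFN-beta (horizontal, 3 libraries per genotype) and with it (vertical, 4 per genotype) for each gene of the class I lists tested in both tables, coloured by list; the 10 genes of the report and some of those named in the text are labelled. Nlrc5, Tapbp, Tap1, Irf1 and Psme2 lie in the lower right, and H2-K1, H2-D1, H2-Q6, H2-Q7 and H2-T23 in the upper right.

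Genes that act before and after the transporter are given list by list. Over all genes tested, limma called 10.1% with IFN-beta and 0.635% without it. With IFN-beta, Erap1, the aminopeptidase that trims peptides in the endoplasmic reticulum, averaged 1466 ± 68.1 in the KO-labelled and 1922 ± 79.6 in the WT libraries (SD, n = 4 each), and the log2 difference was -0.39 (SE 0.06, adjusted p = 8.01e-05 by limma). It was the 1 gene of 11 in peptide loading and trimming that passed with IFN-beta, while Calr (0.16; limma adjusted p = 0.122) and the tapasin-related Tapbpl (0.18; 0.202) did not. Without IFN-beta, 0 of the 11 passed by limma, edgeR or DESeq2 and 1 had an unadjusted p under 0.05, Tapbpl at 0.34 (SE 0.16, adjusted p = 0.785 by limma). The Erap1 difference between settings was -0.54 (SE 0.11, adjusted p = 0.00377 by limma).

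Of 9 proteasome activators and assembly factors, 2 were lower with IFN-beta and 0 were higher by limma, edgeR or DESeq2. Over all genes tested with IFN-beta, limma called 4.84% as lower and 5.25% as higher. Pomp, which assembles proteasomes, was at -0.36 (SE 0.11, adjusted p = 0.0371 by limma), and Psme2, a subunit of the PA28 activator, at -0.20 (SE 0.06, adjusted p = 0.049 by limma). The Pomp call was lost under 8 of its 21 alternatives, among them 5 of the 8 fits that left out 1 library. The Psme2 call was lost under 12 of its 21 alternatives. Without IFN-beta, 0 of the 9 passed by any of the 3 tools and 1 had an unadjusted p under 0.05, Psme2 at 0.44 (SE 0.11, adjusted p = 0.0901 by limma). The Psme2 difference between settings passed, at -0.64 (SE 0.12, adjusted p = 0.00279 by limma). Among cytosolic peptidases, Tpp2 was the 1 of 6 tested that passed with IFN-beta, at -0.21 (SE 0.06, adjusted p = 0.0213 by limma), a call lost under 6 of its 21 alternatives, among them rescaling to equal totals, the 16S covariate and leaving out WT replicate 4, KO-labelled replicate 2 or KO-labelled replicate 3. Without IFN-beta, 0 of 7 passed by any of the 3 tools and Blmh (0.35; limma adjusted p = 0.769) had the smallest p.

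For the difference of the genotype effect between settings, 3 of the 10 genes passed as lower and 0 as higher by limma, edgeR and DESeq2, where 1.33% of all 9078 genes tested were called, 0.892% as lower and 0.441% as higher. Of the 10 differences 9 were negative, where 51.1% of those over all genes were positive, with a median of -0.39, against 0.0086 over all genes. The 3 that passed were Nlrc5, Tapbp and Tap1, given above, and all 3 passed in every fit that left out 1 library. Both genotype contrasts enter this difference, so it is no separate measurement. The libraries with IFN-beta stand in a table of their own, so IFN-beta could not be separated from the table. Recovered reads were 5788070 to 7355337 with IFN-beta and 1747634 to 2963149 without it. The 16S share was 9.05% to 12.01% with IFN-beta and 11.6% to 18.9% without it. The part of such differences between the tables in the result was not tested.

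Levels with and without IFN-beta come from separately normalized tables and were set side by side as RPM, reads scaled to 1000000 listed reads, with no test. Nlrc5 stood at 1425 with IFN-beta and 416 without it in the KO-labelled libraries, 3.43-fold, and at 1677 with and 257 without IFN-beta in the WT libraries, 6.51-fold. Tapbp stood at 1015 with and 194 without IFN-beta in the KO-labelled libraries, 5.24-fold, and at 1112 with and 134 without IFN-beta in the WT libraries, 8.29-fold. Tap1 was 2.73-fold higher with IFN-beta in the KO-labelled and 4.14-fold higher in the WT libraries. At the other end, B2m was 1.37-fold higher in the KO-labelled and 1.55-fold higher in the WT libraries. All 10 genes stood higher with IFN-beta than without it in both genotypes. The side-by-side fold was 1.83 in the KO-labelled and 1.83 in the WT libraries for H2-K1, and for the other members it was lower in the KO-labelled libraries.

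Per length, as RPKM, the RPM per 1000 bases of exon, B2m led in every group. With IFN-beta its level was 3013 ± 100.3 in the KO-labelled and 3039 ± 282 in the WT libraries (SD, n = 4 each). H2-D1 followed at 392 ± 17.9 in the KO-labelled and 340.1 ± 13.05 in the WT libraries, and H2-K1 at 385 ± 15.7 in the KO-labelled and 322 ± 11.5 in the WT libraries, with overlapping ranges between these neighbours in both genotypes. Nlrc5 was in the fifth place at 168 ± 13.98 in the KO-labelled and 197 ± 9.27 in the WT libraries, below Tapbp and above Tap1. Psmb9 was the lowest, at 14.2 ± 1.88 in the KO-labelled and 12.99 ± 1.43 in the WT libraries, below Psmb10 and Psmb8. Without IFN-beta the order from Tapbp down was unchanged, but the ranges of Tapbp, Nlrc5 and Tap1 overlapped between neighbours in both genotypes. There Nlrc5 was at 48.95 ± 9.69 in the KO-labelled and 30.3 ± 7.44 in the WT libraries, and Psmb9 at 5.41 ± 1.28 in the KO-labelled and 3.63 ± 0.166 in the WT libraries (SD, n = 3 each).

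**Figure D4:**
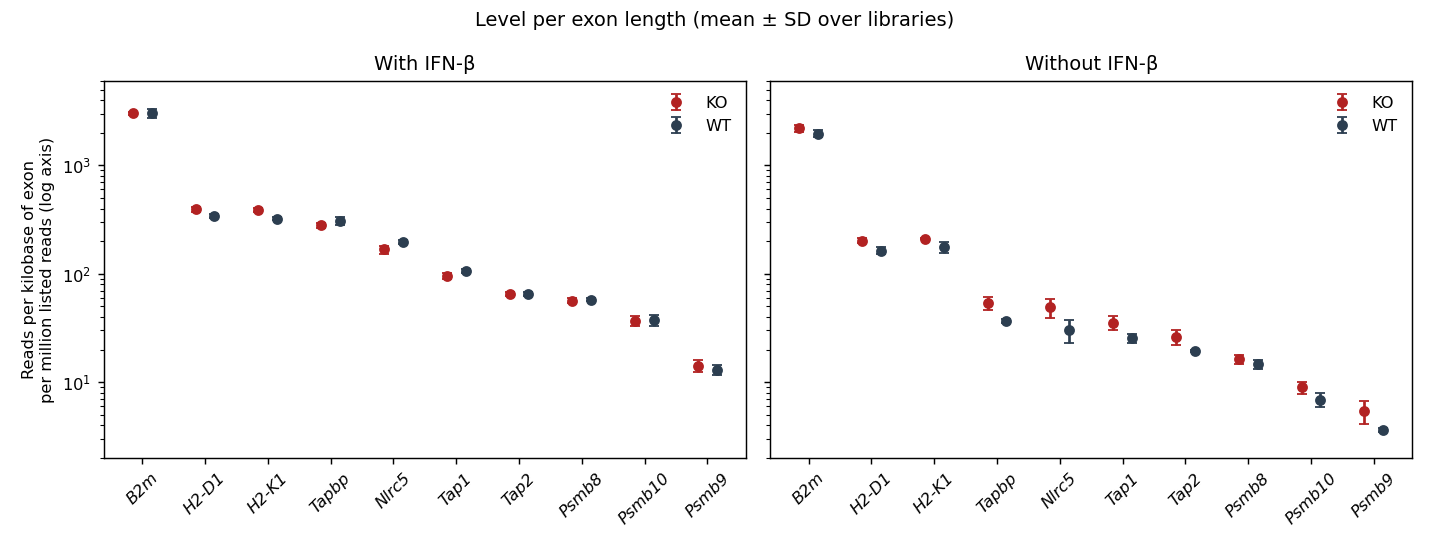
Level per exon length (RPKM, log axis) of the 10 genes, as the mean ± SD over the libraries of each group, KO-labelled in red left of WT in dark, with IFN-beta (4 libraries each) in the left panel and without it (3 each) in the right. B2m is the highest and Psmb9 the lowest in every group, and the panels come from separately normalized tables.

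The genes outside all lists whose pattern over the 14 libraries lay nearest to the median pattern of the 10 were sought among 5705 genes whose mean reached 50 in each table. Nearness was the root mean square distance of centred log2(RPM + 1) values. The nearest were Gm1966 (0.103), Piga (0.118), Trim34a (0.127), Ascc3 (0.129) and Apol7e (0.129). Of the 10 genes themselves Tap2 (0.0753) and Tap1 (0.0928) lay nearest to their median pattern, and Tapbp (0.535) and B2m (0.577) lay farthest. The values compared hold the step between the tables with and without IFN-beta, which were normalized separately.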

How the data were processed

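Total RNA libraries (100 ng, a stranded total RNA kit, 75-base paired reads) were made from the sorted cells, per the labels' protocols. The deposited files are 2 tables of DESeq2-normalized counts, a signal with no negative values, for the settings with and without IFN-beta. Per the submitters' processing notes, DESeq2, featureCounts, STAR 2.5 and Trimmomatic were used, with the builds GRCm38 and mm10, without stated roles. For annotation, strand setting and filters the sources used here give nothing. Dividing a deposited column by its smallest value above 0 turned 100% of its values into whole reads, to within 0.01, and these reads served for depths and count tests.

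The 10 genes and all lists were chosen with earlier results of these data known, and no list is independent evidence. A regulator and a cell type marker first listed are not reported here and were left out of the list counts. All 10 genes are named; of each other list, up to 4 genes that passed, or the 2 with the smallest p, could be named. The contrast of KO-labelled and WT libraries was fitted inside each table by limma 3.58.1 (R 4.3.3), using log2 values after adding 1 and a mean-variance trend. Genes averaging 10 or more were tested, with Benjamini-Hochberg adjustment over all of them. The difference between settings was the interaction contrast over 14 libraries. This scale understates changes of low genes. Alternatives were other pseudocounts (0.5 and 5), filters, scalings and variance models, the quasi-likelihood test of edgeR 4.0.16, DESeq2 1.42.0, the replicate number as a block, the 16S share as a covariate and leaving out each library; values within libraries of high and low 16S share were added after the data were seen. The fits were tested on simulated data. Replicate pairs differed beyond sampling noise, by a chi-square of 1.81 to 8.46 per degree of freedom, and each library counts as 1 sample. Exon lengths and overlaps are from GENCODE on GRCm38, and promoters and coordinates from RefSeq (GRCm38.p6).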

Additional observations from a re-analysis of the deposited data

Results flagged for a closer look

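Of 26 groups of 4 libraries, 3 held a library far from the other 3 relative to the range of the group, where chance flags about 1 in 20 groups. Nlrc5 in KO-labelled replicate 4 with IFN-beta, at 8369 normalized counts, lay below the other 3. The log2 ratio of Psmb8 to Psmb5 in the same library, 4.68, was the lowest of its group. The log2 ratio of Psmb9 to Psmb6 in WT replicate 4 with IFN-beta, 0.52, was the highest of its group.

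Of all 9078 genes tested for the difference between settings, limma called 1.33%, 0.892% as lower and 0.441% as higher. The genotype difference with IFN-beta minus that without it passed the limma interaction test for 7 genes of the lists, all as lower. Among the 10 genes these were Nlrc5 (-0.92), Tapbp (-0.64) and Tap1 (-0.59). In the other lists they were Irf1 (-0.79), Psme2 (-0.64), Erap1 (-0.54) and Irf9 (-0.53). Nlrc5 and Irf1 were called in opposite directions in the 2 settings.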

How the results depend on the processing

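Over the alternatives, 615 of 666 values of the 10 genes kept their direction and their side of the threshold, 18 lost a call, 19 gained one and 14 turned in direction, and for those the cause was not tested. The differences of Nlrc5 and Tapbp between settings passed in all 27 alternatives, and that of Tap1 in all but limma without the trend. Without the trend, genes called were 305 with IFN-beta, 17 without it and 66 for the difference, against 1005, 59 and 121, and 0 of the 10 genes were called in either setting. Robust empirical Bayes called 5 of the 10 with IFN-beta. Whether the replicate numbers pair the samples is not known. Correlations of deviations between libraries of the same number were low, -0.02 to 0.20 without and 0.0033 to 0.14 with IFN-beta. The best partner had the same number for replicates 1 and 3 without IFN-beta and for replicates 1, 3 and 4 with it. It had another number for replicate 2 in both settings. With the replicate block 5 of the 10 genes were called with IFN-beta and 4 without it. In all, 169 genes were then called without IFN-beta and 311 for the difference. For the block and robust empirical Bayes with IFN-beta, the counts over all genes are not given here. The main fit called 10.1% of all genes in that setting. With the 16S share as a covariate 4 of the 10 were called without IFN-beta, with 103 genes in all there and 190 for the difference. Leaving out 1 library gave 0 to 3 of the 10 genes and 39 to 74 genes in all without IFN-beta, and 609 to 1021 genes in all with it, where the count of 609 was without KO-labelled replicate 2, as was the count of 39 without IFN-beta.

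Turned directions were all of uncalled values near 0. B2m with IFN-beta was at 0.047 after quantile normalization and at 0.037 with the 16S covariate, and B2m without IFN-beta ranged from -0.0025 to 0.20 over libraries left out. Psmb10 with IFN-beta was at 0.027 with the covariate and ranged from -0.13 to 0.0034 over libraries left out. The H2-K1 difference between settings was at -0.0091 after rescaling to equal totals, -0.0033 by edgeR and -0.0052 with the covariate, and ranged from -0.11 to 0.079 over libraries left out. With IFN-beta the ratio differences ranged from -0.044 to 0.15 for Psmb9 to Psmb6 and from -0.057 to 0.17 for Psmb10 to Psmb7. Depth limits Psmb9 and Psmb10 without IFN-beta most, since their libraries held few reads of them.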

Other observations

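Of the CD8 T cell markers all 7 were tested in both tables, and their genotype differences had a median of -0.11 with IFN-beta, where 6 of the 7 were negative, and -0.16 without it, where all 7 were negative. By limma, edgeR and DESeq2 0 of the 7 passed in either setting, with 1 at an unadjusted limma p under 0.05 with IFN-beta and 2 without it. Of all genes tested with IFN-beta, limma called 10.1%, 24.4% had an unadjusted p under 0.05 and 50.3% had positive differences. Without IFN-beta these shares were 0.635%, 6.1% and 48.6%. Cd3e (-0.18; limma adjusted p = 0.118) with IFN-beta and Cd3d (-0.40; 0.378) without it had the smallest p.

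Of the class II genes, H2-Ob, whose product modulates peptide loading of class II, held 37.6 to 61.1 normalized counts in the KO-labelled libraries with IFN-beta, against 62.5 to 84.96 in the WT libraries. The groups did not overlap, but the log2 difference of -0.51 (SE 0.17, adjusted p = 0.0645 by limma) did not pass.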
